A study of Drosophila melanogaster with 10 samples.

Results

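The genes described here were those with lower read counts in all 3 libraries that carry the label brat-KD Spt5-KD than in every library of either other genotype. They were chosen by their measured values. Counts were scaled to a library total of 1e6 (CPM), and a gene was taken when its mean control CPM was at least 10 and its lowest CPM among the 3 control and 4 brat-KD libraries was above 0 and at least 2 times the highest CPM of the 3 brat-KD Spt5-KD libraries. Of the 17676 genes in the table, 6724 had a mean control CPM of at least 10 and 6622 of these had a count in every control and brat-KD library. The rule took 50 of them, or 0.755% of the 6622, whereas 608 genes (9.18%) had all 3 brat-KD Spt5-KD libraries below every other library by any margin. The mirrored rule, with brat-KD Spt5-KD at least 2-fold above every other library, took 97.

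The libraries were made from cells sorted from dissected brains of Drosophila melanogaster larvae, 96 h old per the labels. The authors identified NB II in the sort by GFP intensity together with forward and side scatter. All larvae carried wor-GAL4, ase-GAL80 and UAS-mCD8::GFP, which limit GFP and the transgenes to type II neuroblasts (NB II) and, through lasting GFP, to their descendants. Control animals carried nothing further, brat-KD animals carried a UAS hairpin against brat, and brat-KD Spt5-KD animals carried that hairpin together with UAS-siSpt5. No library of siSpt5 without the brat hairpin was analysed here, so a change that siSpt5 makes on its own and one that needs both transgenes cannot be told apart. Each library held many sorted cells, and a smaller share of one cell type and less RNA per cell cannot be told apart in such data.

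NB II are neural stem cells of the larval brain that divide asymmetrically and produce intermediate neural progenitors (INPs), which in turn give rise to neurons and glia. Brat is an RNA-binding protein that is passed to the INP daughter and is needed for it to mature. Without it the daughters revert to neuroblasts and form a tumor. Spt5 binds RNA polymerase II, holds it in the promoter-proximal pause with its partner Spt4 and travels with it during elongation.

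The targeted genes were read first. The brat transcript stood at 912 to 952 CPM in control, at 120 to 219 CPM in brat-KD and at 103 to 322 CPM in brat-KD Spt5-KD. Spt5 stood at 165 to 237 CPM in control and 138 to 153 CPM in brat-KD, and its levels in replicates 1, 2 and 3 of the group labelled brat-KD Spt5-KD were 228, 112 and 537 CPM. Spt5 was therefore below the brat-KD libraries in replicate 2 and above them in replicates 1 and 3, which goes against the label. Reads of a hairpin transgene and of the gene were not separated in the counts. Library totals ran from 4968226 to 9753111 counts in control, from 5432145 to 7409954 in brat-KD and from 2158058 to 4780947 in brat-KD Spt5-KD, and brat-KD Spt5-KD replicate 1 held counts on the fewest genes, 7544 against 8558 to 11617 in the other 9. The 6 defining neuroblast markers were present in all groups, at 1642 to 1771 CPM in control, 3446 to 3689 CPM in brat-KD and 1671 to 2092 CPM in brat-KD Spt5-KD when summed. The largest part was mira, and the markers differed. In all brat-KD Spt5-KD libraries wor and pnt were above every control library. In replicate 1 of that group dpn, insc and klu, at 17.8, 57.4 and 69.7 CPM, were below every control library. In replicates 2 and 3 dpn was above every control library. Summed INP markers stood at 443 to 560 CPM in control, 73.8 to 162 CPM in brat-KD and 69.2 to 498 CPM in brat-KD Spt5-KD. Summed neuron markers stood at 544 to 731, 185 to 283 and 236 to 344 CPM. Of these markers para ran the other way from the sum. Its lowest brat-KD Spt5-KD library held 66.3 CPM, against 23.8 CPM in the highest control and 29.2 CPM in the highest brat-KD library. For elav the brat-KD and brat-KD Spt5-KD libraries overlapped. The higher neuron sum in brat-KD Spt5-KD than in brat-KD therefore owed much to para. The INP sum of 498 CPM in brat-KD Spt5-KD replicate 1 was mostly ham, at 330 CPM against 83.7 to 151 CPM in control. In that library ase, ey, opa and hbn stood at 21.9, 0, 17.8 and 31.1 CPM, below every control library. D, at 97.1 CPM, lay within the control range.

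CPM values are not corrected for gene length, so they compare libraries for a gene and not the amounts of different RNAs. The mean control CPM of the 50 genes ran from 11.4 (CG14535) to 161 (ewg) with a median of 23.1, against a median of 47.4 in the 6572 other genes that the rule could have taken. Over the 50 genes the median of the group means was 23.1 CPM in control, 13.0 CPM in brat-KD and 1.96 CPM in brat-KD Spt5-KD. Without brat-KD Spt5-KD replicate 1 the last value was 2.61 CPM. For the 39 genes with more than 3 counts over the 3 brat-KD Spt5-KD libraries, control exceeded brat-KD Spt5-KD by 2.68-fold (Dus2) to 69.6-fold (alpha-Catr) in mean CPM, and brat-KD exceeded it by 2.75-fold (ckn) to 26.0-fold (CG32944). These distances follow from the way the genes were selected and are given as a description.

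**Figure D1:**
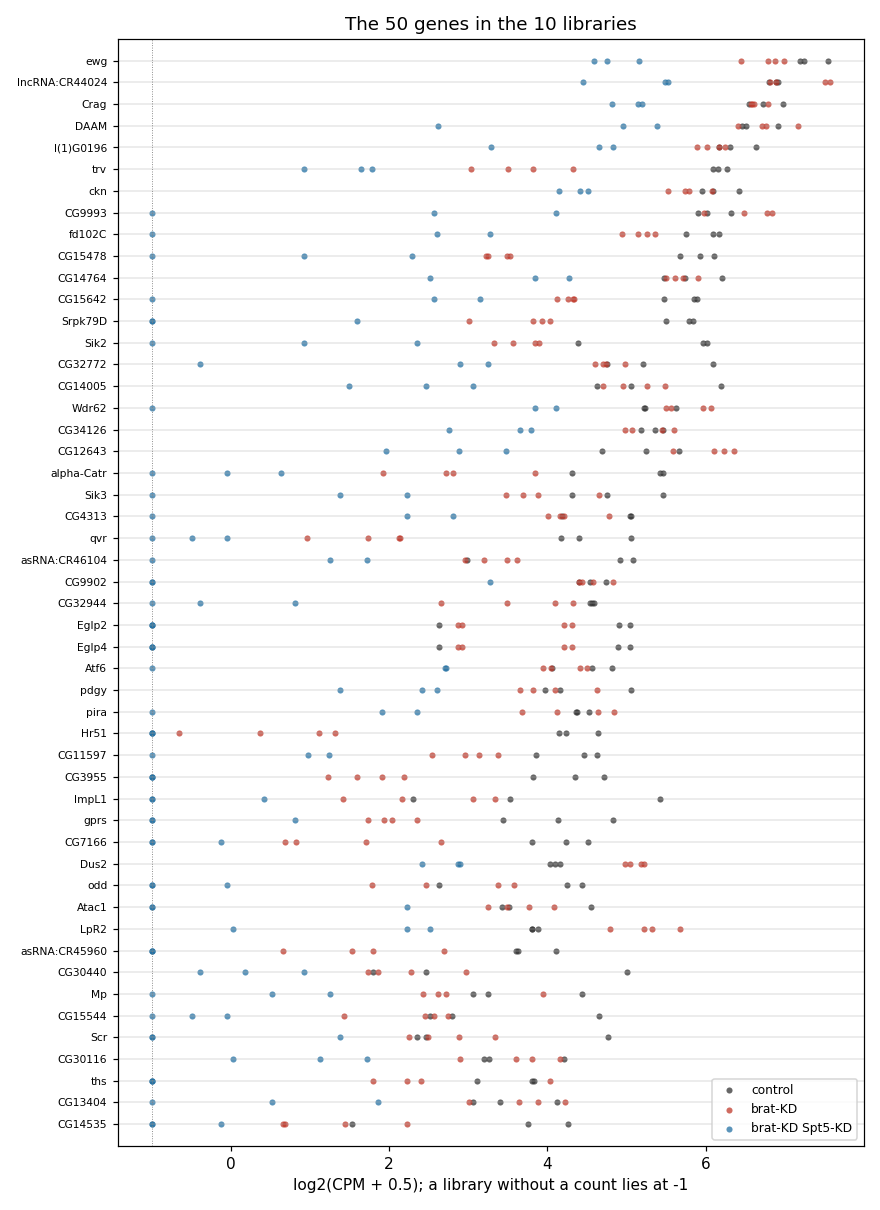
Each row is 1 of the 50 genes, ordered by mean control CPM, and each point is 1 library on the scale log2(CPM + 0.5), with control in grey, brat-KD in red and brat-KD Spt5-KD in blue. The blue points lie left of all others by construction, and 33 of the 50 genes have at least 1 of them at -1, a library without a count, which is replicate 1 for 32 genes and replicate 3 alone for CG32944.

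Of the 25 genes given a role here, 6 encoded transcription factors. The one with the highest control CPM was ewg (erect wing, X:268509-279718), which encodes a DNA-binding protein of the NRF1 family needed in neurons and flight muscle. It stood at 145, 187 and 151 CPM in control, at 110, 86.8, 117 and 126 CPM in brat-KD and at 35.2, 26.4 and 23.6 CPM in brat-KD Spt5-KD. The 3 groups did not overlap, with brat-KD between the other genotypes. The forkhead factor gene fd102C on chromosome 4 was ordered in the same way. Its control libraries held 71.3, 68.0 and 53.5 CPM, its brat-KD libraries 40.5, 37.7, 30.2 and 34.8 CPM, and its brat-KD Spt5-KD libraries 0, 9.20 and 5.56 CPM.

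Hr51 (unfulfilled) encodes a nuclear receptor needed in mushroom body neurons. It held 24.5, 17.2 and 18.3 CPM in control, 1.66, 0.785, 0.135 and 1.98 CPM in brat-KD and no count in any brat-KD Spt5-KD library. Control exceeded the limit of 3 counts over the 3 brat-KD Spt5-KD libraries together by at least 71.9-fold and brat-KD exceeded it by at least 4.09-fold. No brat-KD library overlapped a control library. The lowest brat-KD library, at 0.135 CPM, was itself under 3 counts.

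Odd, Scr and Atf6 were the other 3. The zinc-finger gene odd (odd skipped), a pair-rule regulator in the embryo, held 5.71, 21.2 and 18.5 CPM in control and 2.95, 5.02, 11.5 and 9.92 CPM in brat-KD, against a single count in the 3 brat-KD Spt5-KD libraries. The Hox gene Scr (Sex combs reduced), which specifies segment identity, held 26.7, 4.61 and 5.03 CPM in control and 4.24 to 9.57 CPM in brat-KD, and 0, 2.09 and 0 CPM in brat-KD Spt5-KD. For both genes the control libraries were spread more widely in CPM than the brat-KD libraries, with replicate 1 low for odd and high for Scr. For odd the spread followed the level, with an SD of 8.28 at a mean of 15.2 CPM in control and 4.02 at 7.34 CPM in brat-KD. Atf6, a transcription factor that is cleaved and released from the endoplasmic reticulum when unfolded proteins build up, was steadier, at 16.2 to 27.6 CPM in control, 14.9 to 22.2 CPM in brat-KD and 0, 6.07 and 6.02 CPM in brat-KD Spt5-KD.

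Kinase genes made up 4 of the 25 genes given a role and included both genes of the salt-inducible kinase family. These kinases act in the AMPK-related branch downstream of LKB1 and control the movement of transcriptional co-regulators. Sik2 held 20.5, 64.3 and 62.0 CPM in control, 13.8, 11.3, 14.3 and 9.56 CPM in brat-KD and 0, 4.60 and 1.39 CPM in brat-KD Spt5-KD. Sik3 held 43.5, 26.5 and 19.3 CPM in control, 24.7, 14.3, 12.4 and 10.6 CPM in brat-KD and 0, 2.09 and 4.17 CPM in brat-KD Spt5-KD. Control and brat-KD were separate for Sik2 and overlapped for Sik3. Srpk79D, a kinase of SR proteins that in flies keeps the active-zone protein Bruchpilot from assembling in axons, held 56.6, 54.8 and 44.9 CPM in control and 14.7, 7.54, 13.6 and 15.9 CPM in brat-KD. Its brat-KD Spt5-KD libraries held 0, 2.51 and 0 CPM, 12 counts in all. The inositol phosphate kinase gene l(1)G0196 held 71.7 to 98.7 CPM in control, 58.7 to 75.2 CPM in brat-KD and 24.5, 27.8 and 9.27 CPM in brat-KD Spt5-KD, the smallest distance of the 4 in mean CPM.

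Among the genes given a role, those of cytoskeletal regulators, scaffolds and membrane traffic numbered 5. Apart from alpha-Catr, their control and brat-KD libraries overlapped. Crag, an exchange factor for Rab10 that directs secretion of basement membrane proteins in epithelia, held 92.7 to 125 CPM in control, 94.7 to 110 CPM in brat-KD and 27.7, 36.2 and 34.8 CPM in brat-KD Spt5-KD. It was among the most even of the genes, with a mean of 32.9 ± 4.56 CPM (SD, n = 3) in brat-KD Spt5-KD. DAAM, a formin that nucleates actin in growing axons, held 87.6 to 120 CPM in control and 84.5 to 143 CPM in brat-KD. Its brat-KD Spt5-KD libraries held 30.5, 5.65 and 41.2 CPM, so that replicate 2 was the low one here and not replicate 1.

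ckn (caskin), a scaffold that binds the receptor phosphatase Lar in motor axons, held 61.6 to 85.0 CPM in control, 45.5 to 67.1 CPM in brat-KD and 17.2, 20.7 and 22.2 CPM in brat-KD Spt5-KD. Wdr62, a centrosome and spindle protein whose loss makes larval brains small, held 36.9 to 49.0 CPM in control and 44.6 to 66.6 CPM in brat-KD. Its brat-KD Spt5-KD libraries held 0, 16.7 and 13.9 CPM. Wdr62 was thus without a count in replicate 1 and below every control and brat-KD library in replicates 2 and 3. The alpha-catulin-related gene alpha-Catr held 19.4, 43.5 and 42.3 CPM in control, 3.30 to 13.9 CPM in brat-KD and 6 counts in brat-KD Spt5-KD.

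Ligand, matrix, receptor and membrane proteins were encoded by 6 of the genes given a role, of which 3 had no count in brat-KD Spt5-KD. The FGF ligand gene ths (thisbe), whose product signals through the receptor Heartless to muscle and glial precursors, held 8.11, 13.7 and 13.5 CPM in control and 4.79, 2.98, 4.18 and 15.9 CPM in brat-KD. Control exceeded the limit of 3 counts by at least 42.3-fold and brat-KD by at least 25.0-fold. Eglp2 and Eglp4, neighbouring aquaporin-family genes of the entomoglyceroporin group, overlap on the same strand and held 801 and 800 counts in the 7 control and brat-KD libraries, with equal counts in 6 of them. They therefore stand for 1 signal and not 2. This signal lay at 5.71, 29.3 and 32.6 CPM in control and 6.81, 7.07, 17.9 and 19.3 CPM in brat-KD (values of Eglp2), and at 0 in all 3 brat-KD Spt5-KD libraries.

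qvr (quiver, also sleepless), a Ly6-type membrane protein that sets the activity of the Shaker potassium channel and sleep, held 32.6, 20.6 and 17.5 CPM in control, 1.44 to 3.91 CPM in brat-KD and 2 counts in brat-KD Spt5-KD. Mp (Multiplexin), a collagen of the type XV and XVIII family, held 21.2, 9.02 and 7.85 CPM in control, 4.87 to 14.8 CPM in brat-KD and 0, 1.88 and 0.927 CPM in brat-KD Spt5-KD. LpR2, a receptor that takes up lipophorin-borne lipid, ran the other way between the first genotypes. It held 13.5, 13.5 and 14.3 CPM in control, 50.8, 39.6, 36.8 and 27.2 CPM in brat-KD and 0.522, 5.23 and 4.17 CPM in brat-KD Spt5-KD.

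Of the remaining genes with a role given here, Dus2, which modifies uridine in tRNA to dihydrouridine, held 15.9 to 17.3 CPM in control, 31.0 to 36.9 CPM in brat-KD and 4.81 to 6.95 CPM in brat-KD Spt5-KD. For Dus2 and LpR2, brat-KD libraries lay above all control libraries and brat-KD Spt5-KD libraries below them. pdgy, an acyl-CoA synthetase gene, held 15.2 to 32.8 CPM in control, 12.1 to 24.2 CPM in brat-KD and 2.09 to 5.56 CPM in brat-KD Spt5-KD. Atac1, a subunit of a histone acetyltransferase complex, held 10.3 to 22.9 CPM in control, 9.02 to 16.5 CPM in brat-KD and 0, 4.18 and 0 CPM in brat-KD Spt5-KD. ImpL1, first isolated as an ecdysone-inducible gene of imaginal discs, held 42.2, 4.41 and 11.1 CPM in control, 2.16 to 9.57 CPM in brat-KD and 4 counts in brat-KD Spt5-KD.

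The 3 noncoding RNAs differed among themselves. lncRNA:CR44024 on chromosome 4 stood at 111, 118 and 121 CPM in control and 182, 112, 118 and 189 CPM in brat-KD, against 44.4, 45.4 and 21.3 CPM in brat-KD Spt5-KD. asRNA:CR45960 lies antisense within Srpk79D, so that the reads of the pair may be shared, and stood at 11.7 to 16.8 CPM in control, 1.08 to 5.95 CPM in brat-KD and 0 in brat-KD Spt5-KD. asRNA:CR46104 held 7.37, 33.2 and 29.8 CPM in control, 7.29 to 11.8 CPM in brat-KD and 0, 1.88 and 2.78 CPM in brat-KD Spt5-KD.

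The other 22 genes, 19 of them with CG symbols and the rest being trv, gprs and pira, were given no role here. They may include further members of the groups above. Their group means were 11.4 to 71.6 CPM in control, 2.14 to 93.7 CPM in brat-KD and 0 to 12.6 CPM in brat-KD Spt5-KD. trv stood at 67.6, 76.5 and 70.6 CPM in control, 13.6, 7.69, 10.8 and 19.5 CPM in brat-KD and 2.61, 2.93 and 1.39 CPM in brat-KD Spt5-KD. CG15478 behaved alike, with 50.7 to 68.6 CPM in control, 8.84 to 11 CPM in brat-KD and 0, 4.39 and 1.39 CPM in brat-KD Spt5-KD. For these genes the brat-KD level was already far below control. CG9993, in contrast, held 59.5 to 79.3 CPM in control, 62.6 to 114 CPM in brat-KD and 0, 5.44 and 16.7 CPM in brat-KD Spt5-KD.

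The distance that the rule used ran from the lowest control or brat-KD library to the highest brat-KD Spt5-KD library. For a second reading, each brat-KD Spt5-KD library with fewer than 3 counts was first set to 3 counts at its own depth. The highest was then taken, and through the shallow replicate 3 it was never below 1.39 CPM. The distance read in this way was largest for CG32944, at 4.17-fold, followed by Eglp2 and Eglp4 at 4.11-fold. CG9993 stood at 3.56-fold, fd102C at 3.28-fold, CG14005 at 3.10-fold and Srpk79D at 3.00-fold. CG32944 was even in control, at 22.7 to 23.5 CPM, and held 7 counts in brat-KD Spt5-KD. CG14005 held 24.3 to 72.8 CPM in control and 2.32 to 7.83 CPM in brat-KD Spt5-KD. CG11597 followed at 2.88-fold, pira at 2.66-fold and CG32772 at 2.65-fold. On this measure 7 genes reached 3-fold and 8 were under 2-fold, namely Hr51 at 0.0971, asRNA:CR45960 at 0.777, CG14535 at 0.778, CG7166 at 0.791, qvr at 1.04, CG3955 at 1.32, ImpL1 at 1.55 and CG15544 at 1.58. For these 8 the lowest control or brat-KD library was itself too near the limit of detection to show a 2-fold distance. The rule itself used CPM without this minimum, and at 3-fold it took 15 genes, among them alpha-Catr, odd and the 6 genes at 0 in all 3 libraries.

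Of the genes with a count in brat-KD Spt5-KD, those just inside the 2-fold limit, in CPM as the rule used them, were CG15478 at 2.01, CG15642 at 2.02 and Scr at 2.03. Just outside lay snu at 1.99, Wdr59 at 1.98 and sm at 1.97. sm held 140 to 188 CPM in control, 35.6 to 48.6 CPM in brat-KD and 0, 6.48 and 18.1 CPM in brat-KD Spt5-KD, so its values were of the same kind as those of CG15478. snu held 10.2 to 28.0 CPM in control, 51.3 to 80.8 CPM in brat-KD and 0 to 5.10 CPM in brat-KD Spt5-KD.

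**Figure D2:**
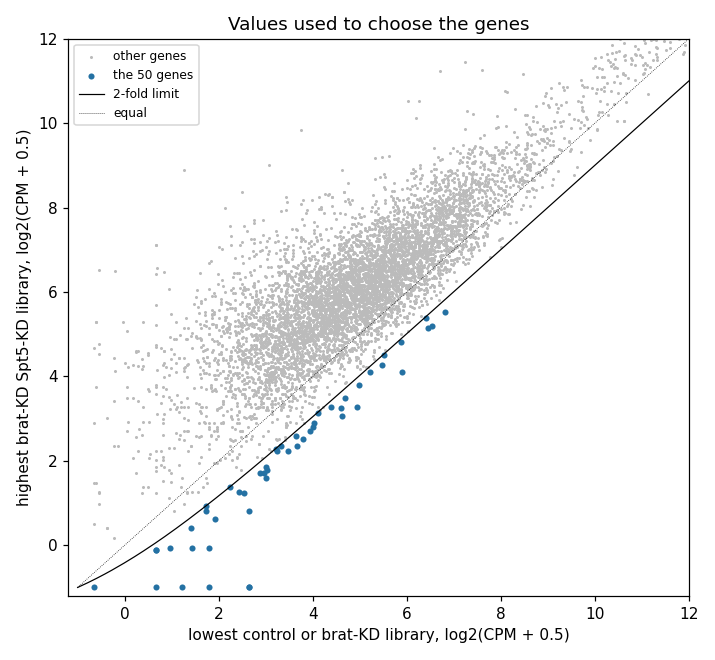
The lowest control or brat-KD library is on the horizontal axis and the highest brat-KD Spt5-KD library on the vertical axis, both as log2(CPM + 0.5), for the 6622 genes the rule could take. The 50 genes (blue) lie on or below the solid 2-fold line, which bends because of the added 0.5, and many of them lie near it, as CG15478 does at 2.01-fold.

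Many of the values in brat-KD Spt5-KD were zeros, and the zeros were unevenly spread over the 3 libraries. Replicate 1 had no count for 32 of the 50 genes (64.0%), replicate 2 for 7 (14%) and replicate 3 for 15 (30.0%). Among the 6572 other genes the same libraries had no count for 10.1%, 0.107% and 0.989%, so replicate 1 lacked counts outside the 50 genes as well. Libraries at 0 allow up to 3 counts, or 0.783, 0.627 and 1.39 CPM in replicates 1 to 3, for counting error only. For 6 genes (Eglp2, Eglp4, ths, Hr51, CG3955 and asRNA:CR45960) all 3 libraries were at 0, and for 12 none exceeded 3 counts. For 17 genes replicate 1 alone was at 0, and for another 17 each of the 10 libraries held a count.

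The highest of the 3 brat-KD Spt5-KD libraries was replicate 2 for 27 genes, replicate 3 for 15 and replicate 1 for 2 (ewg and CG14005), with the 3 tied at 0 for the other 6. Replicate 1 alone was the lowest for 27 genes, replicate 3 for 6 and replicate 2 for 2, and for 15 genes libraries were tied at 0. Without replicate 1 the rule took 101 genes, so the value in replicate 1 decided which 50 of these entered. Whether missing counts in replicate 1 have a part in this was not tested. Replicate 1 was without a count for 27.8% of the other genes with 10 to 20 CPM in control, 14.7% of those with 20 to 40 CPM and 4.95% of those with 40 to 80 CPM. The 50 genes exceeded these shares at each level, at 77.8%, 78.6% and 53.8%, which the rule itself favours.

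**Figure D3:**
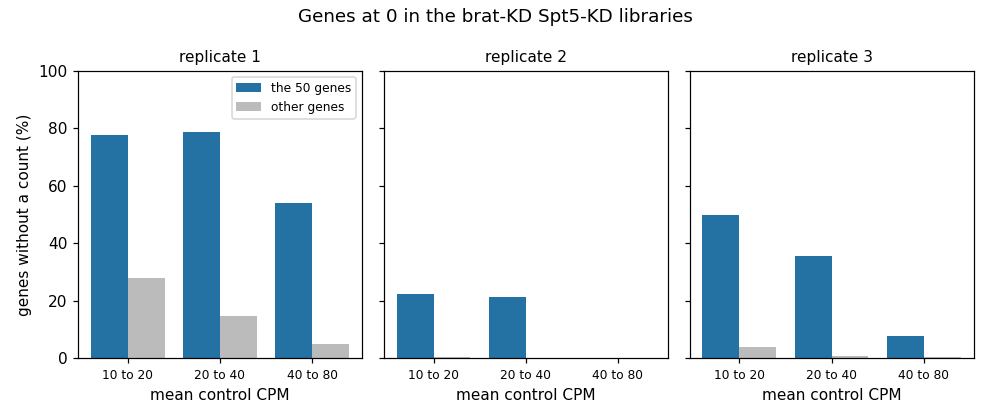
Bars give the percentage of genes without a count in each brat-KD Spt5-KD library, by mean control CPM, for the 50 genes (blue, 18, 14 and 13 genes in the bins from left to right) and the other genes (grey). The blue bars reach 77.8%, 78.6% and 53.8% in replicate 1, 22.2%, 21.4% and 0% in replicate 2 and 50%, 35.7% and 7.69% in replicate 3. The 5 genes with a higher control level had counts in every library.

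Control libraries also differed among themselves. Replicate 1 was at least 2-fold above both other control libraries for 7 of the 50 genes (14%) and at least 2-fold below both for another 7 (14%), against 7.41% and 7.70% of the other genes. The first set included ImpL1, Scr, Mp and CG14005 and the second Sik2, alpha-Catr, Eglp2, Eglp4 and odd. CG30440, with 31.7, 2.97 and 5.03 CPM, would have missed the control minimum without replicate 1. So would Scr, ImpL1, Mp, CG15544, CG30116 and CG13404, which met that minimum only through this library. Without control replicate 1 the rule took 50 genes, 43 of them shared with the original 50.

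The rule did not compare brat-KD with control, but it set limits on both. Its minimum of 10 CPM in control has no counterpart for brat-KD. It also required every library of both groups to lie at least 2-fold above brat-KD Spt5-KD. The lowest of these libraries was brat-KD replicate 1, 2, 3 and 4 for 3, 17, 10 and 8 of the genes. The shares given next are therefore not independent of the selection. All 50 genes passed the filter on low counts. At a Benjamini-Hochberg adjusted p under 0.05 in edgeR's quasi-likelihood test, 16 were lower in brat-KD and 3 were higher, and 31 did not pass. Over all 8785 genes tested, 1258 (14.3%) were lower and 1209 (13.8%) were higher. Among the 6572 other genes that met the minimum, 17.7% were lower and 16.8% higher, against 32.0% and 6% of the 50. The median log2 fold change of the 50 was -0.90, against -0.02 over all genes tested. The name of the set, genes lowered only in brat-KD Spt5-KD, therefore does not hold for the 16.

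The largest decrease was that of Hr51, with a log2 fold change of -4.23 (SE 0.69, edgeR adjusted p = 0.0012), followed by qvr at -3.01 (SE 0.48, adjusted p = 0.0011) and CG3955 at -2.84 (SE 0.49, adjusted p = 0.0016). The log2 fold change was -2.78 for CG7166, -2.67 for CG15478, -2.57 for trv, -2.49 for CG14535, -2.43 for gprs, -2.36 for alpha-Catr and -2.20 for asRNA:CR45960. It was -2.09 for Srpk79D and -2.08 for Sik2, with adjusted p of 0.00027 and 0.0029. Adjusted p for the 16 ran from 3.9e-05 (CG15478) to 0.040 (CG14535). The decrease was smaller for CG15642 (-1.59), CG11597 (-1.46), fd102C (-0.91, adjusted p = 0.0059) and ewg (-0.63, adjusted p = 0.0097). In every brat-KD library CG3955, Hr51, qvr, trv and CG15478 lay below every control library.

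The 3 increases were LpR2, at 1.42 (SE 0.30, adjusted p = 0.0049), Dus2, at 0.97 (SE 0.26, adjusted p = 0.017), and CG12643, at 0.78 (SE 0.25, adjusted p = 0.041). By the roles given here, 3 of the 6 transcription factors and 2 of the 4 kinases were lower. So were 1 of the 5 cytoskeletal and scaffold genes and 1 of the 6 ligand, matrix and membrane genes. Among those that did not pass were DAAM, with a log2 fold change of 0.07 (SE 0.19), Crag, at -0.19 (SE 0.15), and Wdr62, at 0.34 (SE 0.21). For Sik3 the value was -0.996 (SE 0.38, adjusted p = 0.076). Control and brat-KD libraries overlapped for 32 of the genes, brat-KD was below control for 16 and above for 2. Of the 6622 genes that the rule could take, brat-KD was below control without overlap for 1297 and above for 1514. Several calls were lost when 1 library was left out. Without control replicate 2, ewg (adjusted p = 0.082), gprs, CG11597, CG14535, asRNA:CR45960, Dus2 and CG12643 no longer passed, and 12 of the 50 were lower and 1 higher. The log2 fold change then changed little for Dus2 (0.987), asRNA:CR45960 (-2.26) and CG14535 (-2.39), and was smaller in size for ewg, gprs, CG11597 and CG12643. Calls over all genes fell from 2467 to 1773 in that fit. A lost call therefore does not show that the change rested on the library left out. CG11597, CG14535, asRNA:CR45960 and CG12643 also did not pass without control replicate 3, CG14535, asRNA:CR45960 and CG12643 without brat-KD replicate 1, CG14535 and asRNA:CR45960 without brat-KD replicate 2, CG12643 without brat-KD replicate 3, and CG14535 and CG12643 without brat-KD replicate 4. With all 3 genotypes in 1 fit, 6 were lower and 0 higher.

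**Figure D4:**
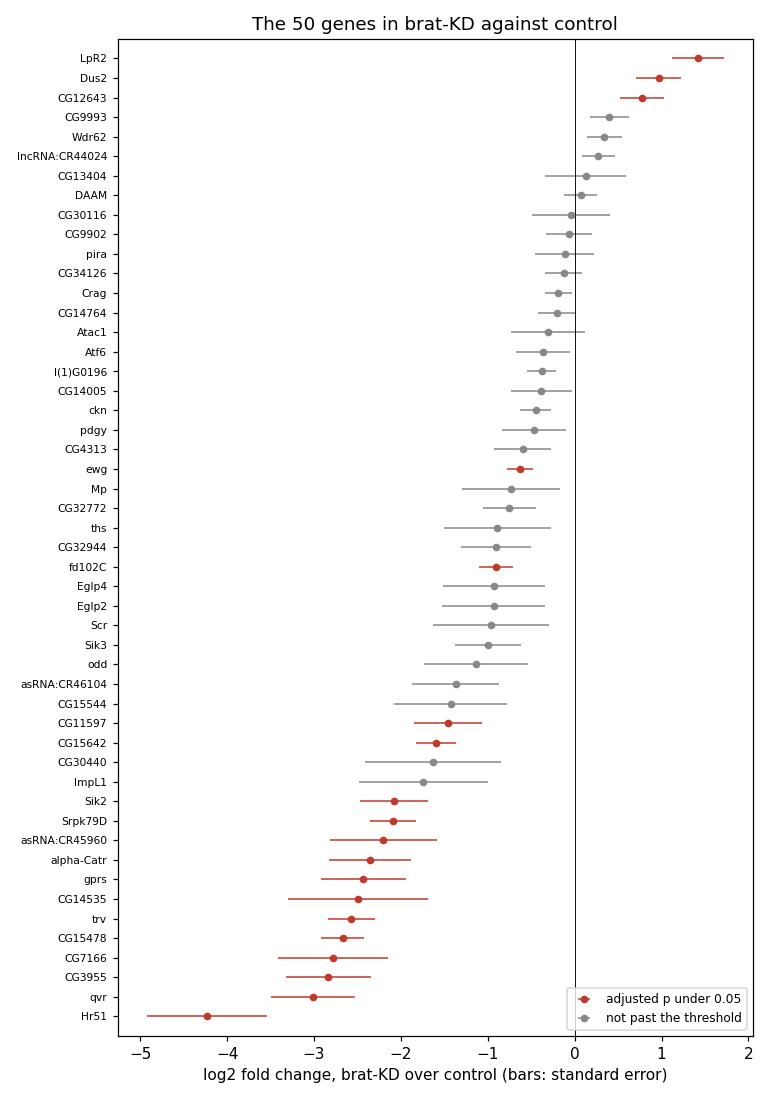
Points are log2 fold changes of brat-KD over control from edgeR for the 50 genes and bars their standard errors, with genes past an adjusted p of 0.05 in red and the others in grey. The 16 red points on the left run from -4.23 (Hr51) to -0.63 (ewg), and the 3 on the right are CG12643, Dus2 and LpR2.

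In the comparisons that the rule did use, the calls are given only to set the genes beside the table. In brat-KD Spt5-KD against brat-KD, 47 of the 50 passed the filter (Hr51, CG7166 and CG14535 did not) and 20 were called lower, where 5.71% of 8750 genes were. In brat-KD Spt5-KD against control, 20 of the 50 were called lower, where 3.32% of 8506 genes were. Nothing is read from either count. Every gene was at least 2-fold apart by the rule, and 27 of the 47 and 30 of the 50 were not called.

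Lists of known pathways held few of the genes. The rule took 0.755% of the 6622 genes it could take, and at that share lists of this size hold few or none. Nothing is therefore read from absence from a list. Of 34 lists only those for FGF and EGF receptor signaling (ths), ecdysone and nuclear receptors (Hr51) and homeobox factors (Scr) held any, and each held 1, of 15, 12 and 19 genes that the rule could have taken. None came from the lists of 20 neuroblast, 15 INP, 19 DNA replication, 24 cell cycle, 26 spindle and kinetochore or 29 Mediator genes, nor from the 20 factors of RNA polymerase II elongation and pausing. In brat-KD against control, 1 of 21 tested FGF and EGF genes was lower and 4 were higher, and 3 of 15 ecdysone genes were lower and 2 higher. In brat-KD Spt5-KD against brat-KD, the counts were 2 lower and 1 higher of 20 FGF and EGF genes, and 3 lower and 0 higher of 15 ecdysone genes. For homeobox genes they were 10 lower and 4 higher of 34 in the first comparison and 2 lower and 0 higher of 33 in the second, in which 5.71% of all genes tested were lower and 5.91% higher. Against control, where 3.32% were lower and 3.97% higher in brat-KD Spt5-KD, the counts were 2 lower and 2 higher of 19 FGF and EGF genes, 2 lower and 0 higher of 16 ecdysone genes and 2 lower and 0 higher of 31 homeobox genes.

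Gene length was not used by the rule. The annotated span of the 50 genes, introns included, had a median of 9491.5 bases and quartiles of 2642 and 16682, against a median of 3197 bases and quartiles of 1721 and 7386 in the 6517 other genes with an annotation. The exonic length differed less, with medians of 3405.5 and 2365 bases, and the median number of exon blocks was 6 against 4. Divided at the quartiles of span, 28 (1.71%) of the 1641 genes longer than 7466 bases were among the 50, against 0.548% of genes up to 1724 bases, 0.305% up to 3208 bases and 0.487% up to 7466 bases. These are shares of genes in a single set and carry no test.

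The longer span was seen at both levels of expression. Below 40 CPM in control the median span was 8580 bases for 32 of the genes and 2666 bases for the other genes, and at 40 CPM or more it was 10178.5 bases for 18 of the genes and 3646 bases for the others. The 101 genes taken without brat-KD Spt5-KD replicate 1 had a median span of 8968 bases. Examples are Wdr62 (2L:1884622-1944289), trv (3R:28026615-28090740), ths (2R:11756817-11814424), Mp (3L:6998843-7053499) and DAAM (X:1289713-1322362). Short genes were present too, among them CG12643 (X:10264233-10265263), Atac1 (2L:6959099-6960328) and ImpL1 (3L:13382765-13383999).

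Among the genes outside the 50, the fold changes moved with span in the same direction. In brat-KD Spt5-KD against brat-KD the median log2 fold change was 0.32, -0.03, -0.30 and -0.32 from the shortest to the longest of these 4 classes, and against control it was 0.11, 0.03, -0.11 and -0.37. In brat-KD against control it was -0.29, 0.00, 0.11 and -0.07, without such an order. The share without a count in brat-KD Spt5-KD replicate 1 among these other genes ran the other way, from 14.6% in the shortest class to 5.15% in the longest. Whether span has a part in the values of the 50 genes was not tested, and neither were RNA quality and the completeness of transcripts in these libraries.

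**Figure D5:**
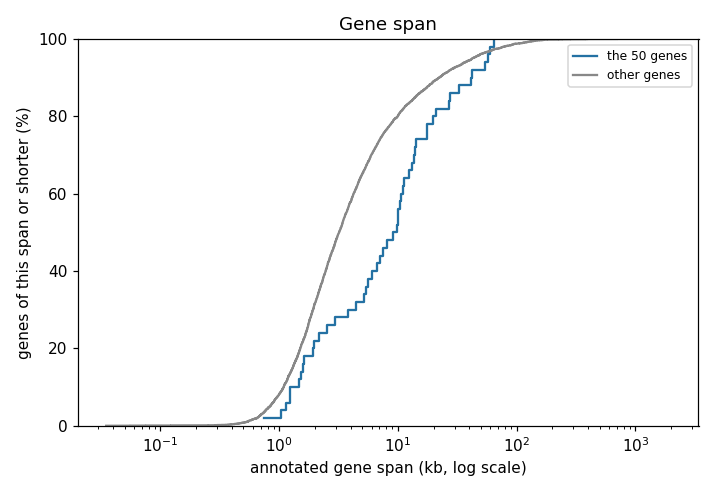
The curves give the percentage of genes with an annotated span up to the value on the horizontal axis (kb, log scale) for the 50 genes (blue) and the 6517 other genes (grey). The blue curve lies to the right over most of its length, with medians of 9491.5 and 3197 bases.

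By chromosome arm, 15 of the genes lay on X (30.0%) and 15 on 2R (30.0%), against 17.8% and 19.8% of the other genes. The 3R arm held 6 (12% against 24.2%), 2L and 3L held 6 each (12%, against 17.1% and 19.2%), and chromosome 4 held 2, fd102C and lncRNA:CR44024 (4.00% against 1.03%). Among the 101 genes taken without brat-KD Spt5-KD replicate 1 the share on X was 30.7% and that on 3R was 20.8%. The median log2 fold change of the other X-linked genes was -0.11 in brat-KD Spt5-KD against brat-KD, beside -0.03 to -0.10 on the other arms. The 68 other genes on chromosome 4 had a median of -0.62 in brat-KD against control and -0.68 in brat-KD Spt5-KD against control, beside which the values of fd102C are to be read. The X-linked noncoding RNA lncRNA:roX1, part of the dosage compensation complex in males, stood at 1146 to 1406 CPM in control, 838 to 1130 CPM in brat-KD and 438, 255 and 637 CPM in brat-KD Spt5-KD. Its partner lncRNA:roX2 stood at 29.9, 32.1 and 58.6 CPM in control, 4.08 to 13.8 CPM in brat-KD and 0, 0.837 and 19.5 CPM in brat-KD Spt5-KD, so that replicate 3 lay above every brat-KD library. The roX RNAs were chosen after their values were seen, and the labels do not give the sex of the larvae, whose share in each library cannot be told apart from the genotype.

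By type, 47 of the 50 genes were protein-coding. Overlap with another annotated gene was as common as elsewhere, at 26 genes (52%) against 54.8%. The libraries were directional, but whether the counting used strand was not given in the sources used here, so reads of overlapping genes may be shared. For 10 of the genes an overlapping gene held at least 50% as many counts in control and brat-KD, and their values are uncertain for this reason. They were Eglp2 and Eglp4, Sik2 and CG4313 (which overlap each other), pdgy, Atac1, CG15642, CG11597 and the antisense RNAs asRNA:CR45960 and asRNA:CR46104. CG5946, which overlaps CG11597 on the same strand, held 264 and 151 counts in brat-KD Spt5-KD replicates 2 and 3 and none in replicate 1. With genes that overlap no other gene only, the rule took 24.

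Markers of other cell types were read beside these values. The 6 hemocyte markers summed to 34.1 to 88.4 CPM in control, 0.785 to 2.21 CPM in brat-KD and 15.1 to 18.0 CPM in brat-KD Spt5-KD. NimC1, He and eater were at 0 in all libraries. The control sum was almost all Pxn, at 33.7, 87.6 and 70.9 CPM. Hml ran the other way, at 0 in every control library and at 17.8, 7.95 and 6.02 CPM in brat-KD Spt5-KD. The 6 glia markers summed to 334 to 509, 274 to 400 and 390 to 439 CPM, and the 5 muscle markers to 5.23 to 17.5, 1.48 to 5.95 and 10.2 to 76.9 CPM. The glia sum was almost all Eaat1, at 122 to 237 CPM, and nrv2, at 114 to 254 CPM. In every library repo, moody, alrm and wrapper were at most 9.03 CPM. The 5 fat body markers reached 40.3, 2.02 and 29.2 CPM at most. None of the marker genes was among the 50, where the rule took 0.755% of the genes it could take. Whether shifts in cell types have a part in the lower values of the 50 genes was not tested.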

How the data were processed

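RNA-seq counts of 10 libraries of cells sorted as NB II by GFP and scatter (3 control, 4 brat-KD, 3 brat-KD Spt5-KD) were analysed. The authors deposited a table of read counts per gene, without normalization, from polyadenylated RNA in directional libraries whose reads were mapped to BDGP6 by bowtie2 (very-sensitive-local). The submitters' processing notes name dm6, FastQC and edgeR 3.26.8, and the counting program, its annotation and its strand setting were not given in the sources used here. Groups and replicates were taken from the labels, which do not say whether libraries came from separate crosses, so p-values measure the spread between these libraries, which may be partly technical.

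CPM were counts divided by the library total. Gene positions, spans and overlaps came from the Ensembl annotation BDGP6.54, where 127 of 17676 genes were not found. Comparisons were fitted separately, each on the libraries of its 2 genotypes, in R 4.3.3 with edgeR 4.0.16 (TMM, filterByExpr, quasi-likelihood test, Benjamini-Hochberg adjustment over all genes tested, threshold 0.05). DESeq2 1.42.0 and the other settings described at the end were alternatives. Figures and tables were made in Python 3.11.15 with pandas 2.3.3. The fits were tested on simulated data in which 200 genes differed 4-fold: 66.5% of them were recovered for brat-KD against control (8536 genes), 39.5% for brat-KD Spt5-KD against brat-KD (8419) and 33.0% for brat-KD Spt5-KD against control (8119), with 9, 5 and 2 false calls. Totals of 2158058 to 9753111 counts put 3 counts, the limit used for detection, at 0.308 to 1.39 CPM.

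The members and the gene lists were chosen with earlier results of these data known. Genes named in the text were members with a listed or known role, the 10 with the highest control CPM, the 10 with the largest distance by the rule, those past the threshold in brat-KD against control (up to 10 in each direction by size, with the other 6 named in addition after their values were seen), the 3 genes on either side of the 2-fold limit, and brat and Spt5. Genes named for their pattern among control libraries or for an overlap were likewise chosen after their values were seen. Roles were taken from general knowledge and given for 25 of the 50 genes.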

Additional observations from a re-analysis of the deposited data

Results flagged for a closer look

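In the 4 brat-KD libraries 1 value stood far from the others for 2 of the 50 genes (Dixon's criterion at the 95% level), where chance alone gives about 2.5 of 50. ths was at 15.9 CPM in brat-KD replicate 4 and at 2.98 to 4.79 CPM in the other brat-KD libraries, so that this library alone lay above its control libraries (8.11 to 13.7 CPM). Mp was at 14.8 CPM in brat-KD replicate 3 and at 4.87 to 6.07 CPM in the others. Neither gene passed the test in brat-KD against control, with log2 fold changes of -0.89 (SE 0.61) for ths and -0.73 (SE 0.57) for Mp.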

How the results depend on the processing

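The rule gave 50 genes with CPM from library totals, 52 with TMM-scaled and 47 with DESeq2-scaled totals, and 44 of the 50 were kept in each of the last. It gave 69 genes at a control minimum of 5 CPM, 32 at 20 CPM, 15 at 3-fold, 128 at 1.5-fold and 24 among genes without overlap. Leaving out 1 library gave 50 to 158 genes, with 101, 158 and 116 without brat-KD Spt5-KD replicates 1, 2 and 3, since fewer libraries had to be low. Leaving out replicate 1 of both control and brat-KD Spt5-KD, chosen after seeing the data, gave 102, of which 43 were among the 50.

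In brat-KD against control the number of the 50 that were lower was 16, and 6 with all 3 genotypes in 1 fit and 12 to 22 without 1 library. The number higher was 3, and 0 with all 3 genotypes in 1 fit, 1 with the replicate block and 1 to 3 without 1 library. No direction was reversed. Of the 19 calls 5 (CG15478, CG3955, Hr51, trv and qvr) held in each of the alternatives that tested them, 13 were lost with all 3 genotypes in 1 fit and 7 in some other setting.

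Over all genes, changes in brat-KD against control numbered 2467, and 1250 with all 3 genotypes in 1 fit and 1691 to 3229 without 1 library. In brat-KD Spt5-KD against brat-KD they numbered 1017, and 1648 with DESeq2 and 334 to 2408 without 1 library, the highest without brat-KD Spt5-KD replicate 1. In brat-KD Spt5-KD against control they numbered 620, and 1347 with DESeq2, 1450 with all 3 genotypes in 1 fit and 64 to 1504 without 1 library, the lowest without control replicate 2 and the highest without brat-KD Spt5-KD replicate 1. The cause was not tested. Libraries with the same replicate number did not deviate together (correlations of -0.02 to 0.14). With the number as a replicate block the counts were 1735, 1 and 232, and 14 of the 50 were lower in brat-KD.

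Depth limited the values most in brat-KD Spt5-KD replicate 3, where 3 counts are 1.39 CPM. For the 12 genes with at most 3 counts in each brat-KD Spt5-KD library the remaining level is not known, and in replicate 1, which had counts on the fewest genes, a 0 is found for 10.1% of the other genes too.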

Other observations

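Several lists that held none of the 50 genes differed between brat-KD Spt5-KD and brat-KD. Of 30 genes of mitochondrial respiration 15 were higher in brat-KD Spt5-KD and 0 lower (median log2 fold change 0.84), and of 31 proteasome genes 12 were higher and 0 lower (0.69). Of 20 neuroblast genes 9 were lower and 0 higher (-0.76), of 25 cell cycle genes 8 were lower and 0 higher (-0.45), and of 32 chromatin genes 8 were lower and 0 higher (-0.38), beside a median of -0.05 over all genes tested. In this comparison the median of genes outside the 50 ran from 0.32 in the shortest span class to -0.32 in the longest. The spans of the listed genes were not compared. Counts are of genes past an edgeR adjusted p of 0.05, at which 5.71% of all genes tested were lower and 5.91% higher. Among 20 factors of RNA polymerase II elongation and pausing, Spt5 included, 1 was lower and 1 higher.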
